A study of Mus musculus with 31 samples.

Results

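The change from 4 to 6 weeks of age was measured in the skin of SHARPIN-deficient cpdm mice, with 3 arrays at each age, 6 of the 31 arrays in the series. The arrays were chosen by their titles, which give genotype and age. RNA was measured with 1 array per skin sample, and the samples came from different mice. All mice were female. The mutants were C57BL/KaLawRij-Sharpincpdm/Sharpincpdm RijSunJ mice, homozygous for the cpdm mutation of Sharpin, aged 4 or 6 weeks. Wild type C57BL/6J mice of the same ages (3 arrays at 4 weeks, 4 at 6 weeks) show what age did in unaffected skin. Mutants and controls come from 2 C57BL substrains. Any comparison between them therefore mixes the substrain with the Sharpin genotype, and these cannot be told apart. The labels name no treatment of the mice. The sources used here do not give the skin site or the time of day of collection.

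SHARPIN is a subunit of the linear ubiquitin chain assembly complex, which tags signalling proteins downstream of the tumour necrosis factor receptor and so restrains cell death in keratinocytes. Mice that lack it develop a chronic proliferative dermatitis with a thickened epidermis, an abnormal cornified layer, dying keratinocytes and eosinophils in the dermis. Mouse skin of this age also passes through the hair cycle, in which the dermis and fat thicken and thin with hair growth, so some RNA levels move with age in healthy skin too.

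The skin of the mutant gained RNA of some cornified layer genes, of stressed keratinocytes and of interleukin 36 cytokines between 4 and 6 weeks. It lost RNA of several collagens and of the imprinted gene Meg3. Most of the genes that fell, Meg3 among them, were also lower at 6 weeks in wild type skin. Levels are log2 signals, and a change is the mean at 6 weeks minus the mean at 4 weeks on that scale, ± its standard error (SE) from the fit with limma (n = 3 and 3). A gene was called at a Benjamini-Hochberg adjusted p below 0.05 over all 19938 genes. Of these, 303 were called (1.52%), 243 higher (1.22%) and 60 lower (0.301%) at 6 weeks. At least 2-fold changes were called for 52 higher and 11 lower genes. The median change over all genes was -0.01, and 47.9% of genes lay above 0 and 51.6% below. With 3 against 3 arrays, the arrays of the 2 ages did not overlap for 12.4% of genes in the higher direction and 11.9% in the lower. In other fits the split was more even, with 470 higher and 311 lower when the spread was estimated from the cpdm arrays alone, 428 and 266 with only the 6 arrays, and 824 and 535 with array weights. Of the 303 calls, 79 held when each of the 6 arrays was left out in turn, 74 higher and 5 lower. The count fell to 100 without 4-week replicate 2 and to 95 without 6-week replicate 3. The spread is pooled over all groups, and without wild type 6-week replicate 2, an array that stood apart from its group, 336 genes were called, among them 298 of the 303. Wild type 8-week replicate 3 had the lowest array weight (0.161, against 0.417 for wild type 6-week replicate 2). Its own part in the pooled spread was not tested.

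Sharpin itself read 7.50, 7.22 and 7.20 at 4 weeks and 7.55, 7.37 and 7.33 at 6 weeks in the mutant, a change of 0.11 ± 0.09 (limma, adjusted p = 0.628). The keratins that mark basal and suprabasal epidermis were high in each of the 6 arrays, 12.21 to 12.77 for Krt14, 12.43 to 12.70 for Krt5 and 12.26 to 12.51 for Krt10. Krt14, Krt5 and Krt10 were not called. The changes of Krt14 and Krt5 were 0.39 ± 0.14 (adjusted p = 0.208) and 0.22 ± 0.08 (adjusted p = 0.173), close to those in wild type skin (0.48 and 0.24). Krt10 changed by -0.06. The Y-linked gene Kdm5d read 3.41 to 4.04 in these arrays. Between arrays of the same age, Pearson's r over genes was 0.992 to 0.996, and genes are not independent of each other. In whole skin, more cells of a type and more RNA per cell cannot be told apart. Probe sets of near-identical genes, such as those of the Lce, Sprr, Stfa, Chil, Klk and Krt6 families, can take up each other's RNA.

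Promoters of 4 genes that rose are shown first, from 3 groups described in turn: the chitinase-like gene Chil4, the cornified layer genes Rptn (repetin) and Sprr1b (small proline-rich protein), and the interleukin 36 gene Il1f8. Each runs 5′ to 3′ on the gene's strand, from 250 bases before the annotated start to 50 after it, in RefSeq's GRCm38.p6 sequence. Capitals mark matches to 1 of 7 short motifs searched on both strands: TGANTCA (AP-1), TTC followed after 4 bases by GAA (STAT), GGGA followed after 4 bases by CC (NF-kB), AACCNGTT (Grainyhead-like), TTGCNNAA (C/EBP), TATAAA for the TATA box and CACGTG for the E-box.
Chil4 (chr3:106219430-106219729, minus strand): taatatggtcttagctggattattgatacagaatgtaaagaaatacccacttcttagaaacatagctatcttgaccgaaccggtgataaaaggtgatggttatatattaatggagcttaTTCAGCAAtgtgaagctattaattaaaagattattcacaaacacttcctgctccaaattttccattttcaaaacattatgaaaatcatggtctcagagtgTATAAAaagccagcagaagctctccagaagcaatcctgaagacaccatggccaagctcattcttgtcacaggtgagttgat
Rptn (chr3:93393449-93393748, plus strand): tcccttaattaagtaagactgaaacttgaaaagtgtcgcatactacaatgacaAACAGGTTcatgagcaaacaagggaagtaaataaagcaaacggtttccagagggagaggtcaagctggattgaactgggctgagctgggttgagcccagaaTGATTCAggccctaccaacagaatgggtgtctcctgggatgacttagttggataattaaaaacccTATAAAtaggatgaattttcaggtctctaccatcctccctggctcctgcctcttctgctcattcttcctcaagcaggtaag
Sprr1b (chr3:92438730-92439029, minus strand): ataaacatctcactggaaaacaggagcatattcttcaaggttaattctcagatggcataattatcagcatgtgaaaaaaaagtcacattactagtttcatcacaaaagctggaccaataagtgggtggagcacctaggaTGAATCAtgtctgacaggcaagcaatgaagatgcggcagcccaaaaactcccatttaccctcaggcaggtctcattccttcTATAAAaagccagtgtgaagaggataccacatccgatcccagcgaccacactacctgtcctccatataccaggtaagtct
Il1f8 (chr2:24152922-24153221, plus strand): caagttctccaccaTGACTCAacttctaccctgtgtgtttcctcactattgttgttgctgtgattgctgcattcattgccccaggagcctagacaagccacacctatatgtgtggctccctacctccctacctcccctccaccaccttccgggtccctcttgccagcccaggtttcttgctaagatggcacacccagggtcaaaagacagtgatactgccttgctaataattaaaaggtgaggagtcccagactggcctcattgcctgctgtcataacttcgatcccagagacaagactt
AP-1 letters lie 96 bases before the start of Rptn, 111 before that of Sprr1b and 236 before that of Il1f8. TATA box letters lie 31 bases before the start of Chil4 and Rptn and 30 before that of Sprr1b. Chil4 also holds C/EBP letters and Rptn Grainyhead-like letters. Among all 32851 promoters of this length, 7.81% hold the AP-1 letters, and 6.90% of the 19177 promoters of measured genes do. The share was 11.8% of 229 promoters of genes called higher and 0 of 59 promoters of genes called lower. These promoters belong to 194 and 42 genes, so some genes were counted with more than 1 start. The other shares follow in the same order, from all promoters to those of measured genes, of genes called higher and of genes called lower. For NF-kB they were 20.7%, 23.9%, 24.9% and 20.3%, and for C/EBP 10.8%, 9.75%, 13.5% and 10.2%. For STAT they were 6.95%, 6.24%, 8.30% and 1.69%, and for the TATA box 13.6%, 11.5%, 12.2% and 11.9%. For Grainyhead-like letters they were 2.09%, 1.93%, 1.31% and 0%, and for the E-box 7.15%, 8.24%, 6.99% and 6.78%. The promoters of Casp14 and Klk13, described next, hold none of the 7 motifs in this window. These matches describe letters and were not tested as binding sites.

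Genes of epidermal differentiation and the cornified envelope, the cross-linked protein shell of dead surface cells, rose in the largest number. Of 28 measured genes on that list, 13 rose and 0 fell, 27 lay above 0, and the list's median change was 0.72, against -0.07 in wild type skin. Members that were not called include Lor (0.16), Cdsn (0.17), Ppl (0.06) and Flg2 (-0.29), so the rise was not that of the whole list. Repetin (Rptn), an envelope precursor, read 7.39, 6.82 and 6.70 at 4 weeks and 9.42, 8.86 and 9.74 at 6 weeks. It was 5.17-fold higher, a change of 2.37 ± 0.19 (limma, adjusted p = 3.63e-08), and the 2 ages were far apart. Casp14, a caspase of cornifying cells that helps break down filaggrin, read 8.11, 7.89 and 8.00 and then 9.35, 9.43 and 9.50, a change of 1.43 ± 0.13 (adjusted p = 3.09e-07). For Casp14 the 3 arrays of each age lay close together and the ages were well apart. Hornerin (Hrnr), a filaggrin-like envelope protein, was already among the brightest probe sets and rose by 0.83 ± 0.15 (adjusted p = 0.00263). All 3 genes kept their calls without any 1 of the 6 arrays. Involucrin (Ivl), the classic envelope scaffold, changed by 1.22 ± 0.29 (adjusted p = 0.0262), a call that ended without any 1 of the 6 arrays (adjusted p = 0.0602 to 0.138). Hrnr, Ivl, Lor, Cdsn, Ppl and Flg2 were named after their values were seen.

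**Figure D1:**
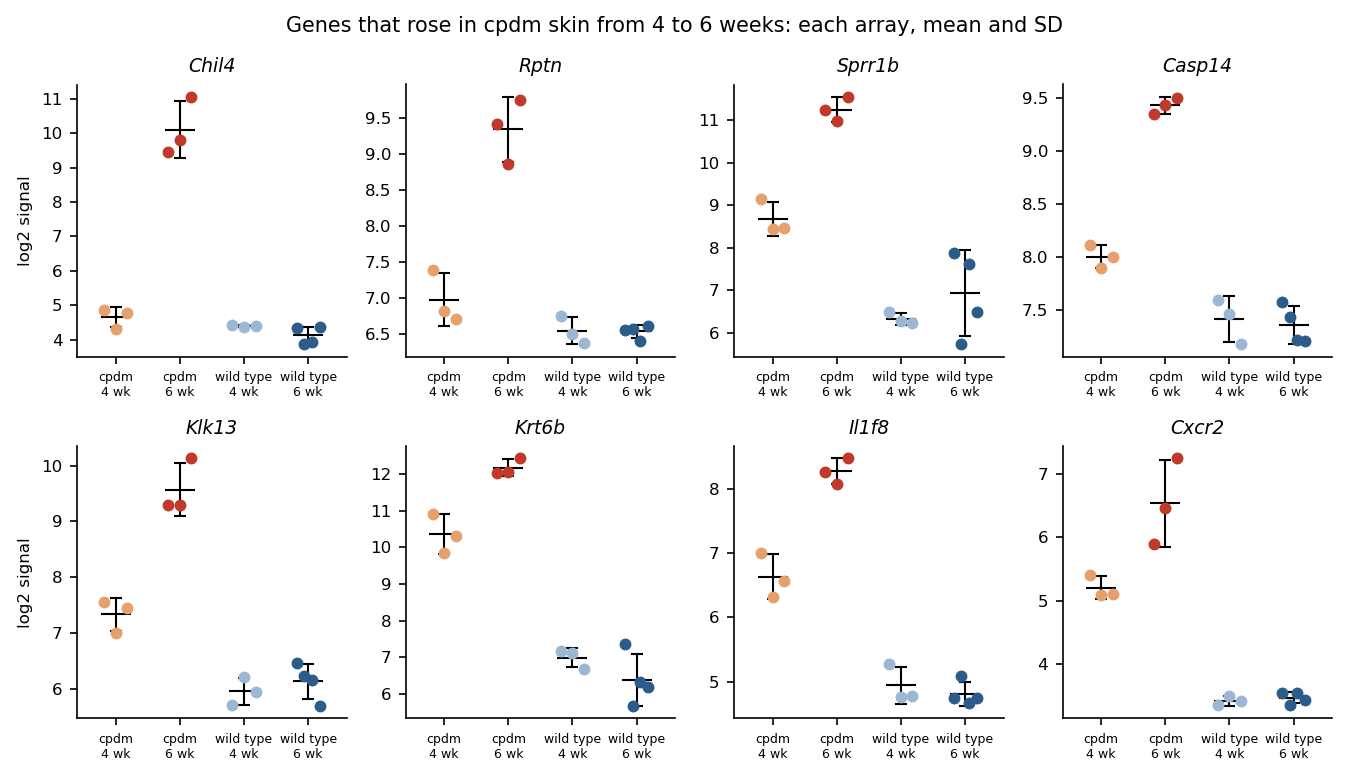
Each panel plots the log2 signal of 1 gene in every array of cpdm and wild type skin at 4 and 6 weeks; points are arrays, and the black bar and whiskers are the group mean and SD. Cpdm arrays at 6 weeks lie above those at 4 weeks in all 8 panels, and for Chil4 the 4-week mutant arrays sit between 4.31 and 4.85 while the 6-week arrays sit between 9.46 and 11.06.

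Envelope gene families that are clustered in the genome were counted whole after the values had been seen. Of 19 late cornified envelope (Lce) genes, 5 rose and all 19 lay above 0, with a median of 0.61 against -0.28 in wild type skin. Lce3c read 6.40, 6.10 and 5.94 and then 8.04, 7.54 and 8.44, a change of 1.86 ± 0.25 (limma, adjusted p = 9.41e-05). Lce1g read 4.54, 4.24 and 4.11 and then 5.61, 5.51 and 5.39, a change of 1.21 ± 0.17 (adjusted p = 0.000144). Both kept their calls without any 1 array, whereas that of Lce3e (1.10 ± 0.27, adjusted p = 0.0348) ended without 4-week replicate 1 or 2 (0.157 and 0.129) and without 6-week replicate 1 or 3 (0.0733 and 0.317). Of 13 small proline-rich (Sprr) genes, 4 rose and 12 lay above 0. Sprr1b read 9.15, 8.45 and 8.47 and then 11.23, 10.98 and 11.55, 5.91-fold higher (2.56 ± 0.40, adjusted p = 0.000814), and kept its call without any 1 array. All of its 6-week arrays lay well above all of its 4-week arrays.

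Kallikrein-related peptidases (Klk), serine proteases that cut the junctions between cornified cells and activate one another and some cytokines, were the second such family. The count took every gene with a Klk symbol, whether or not it is a skin protease. Of 22 measured, 7 rose and 0 fell, but only 12 lay above 0 and the median of this set was 0.02, so the rise was that of some members. Klk13 read 7.55, 7.0 and 7.45 and then 9.29, 9.30 and 10.13, 4.72-fold higher (2.24 ± 0.23, limma, adjusted p = 1.85e-06). Klk9 changed by 1.66 ± 0.24 (adjusted p = 0.000267) and Klk6 by 1.61 ± 0.23 (adjusted p = 0.000294). Klk8, also known as neuropsin, changed by 1.38 ± 0.15 (adjusted p = 3.51e-06). For each of these 4 the arrays of the 2 ages were apart and the call held without any 1 array. Klk11 (0.92 ± 0.17, adjusted p = 0.00351) held likewise. The main desquamation proteases Klk5 and Klk7 had smaller changes of 0.75 ± 0.15 (adjusted p = 0.00935) and 0.69 ± 0.15 (adjusted p = 0.0153). Their calls ended without 4-week replicate 2 (0.0626 and 0.0785), 4-week replicate 3 (0.0509 and 0.0584) or 6-week replicate 3 (0.0956 and 0.103). In wild type skin Klk7 rose by 0.59 (limma, adjusted p = 0.0293), a call that ended without 5 of the 7 wild type arrays (0.0602 to 0.142). Klk6 changed there by 0.66 and Klk13 by 0.18, while Klk5, Klk8, Klk9 and Klk11 lay below 0. Klk5, Klk7 and Klk11 were named after their values were seen. Another surface protease gene, Tmprss11g, rose by 1.65 ± 0.26 (adjusted p = 0.00101).

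Blmh, bleomycin hydrolase, which acts after Casp14 in the breakdown of filaggrin to free amino acids, read 9.69, 9.39 and 9.53 and then 10.52, 10.48 and 10.83, a change of 1.07 ± 0.16 (limma, adjusted p = 0.000613). Ggct, which makes pyroglutamate from gamma-glutamyl peptides, rose by 1.23 ± 0.15 (adjusted p = 1.98e-05). Blmh and Ggct held without any 1 array, and Blmh was named after its value was seen. Rbp2, a cellular retinol-binding protein, read 8.07, 7.73 and 7.93 and then 9.22, 9.36 and 10.11, a change of 1.65 ± 0.17 (adjusted p = 2.79e-06). Aldh1a3, an enzyme that makes retinoic acid, rose by 1.36 ± 0.18 (adjusted p = 9.41e-05) and was named after its value was seen. The arrays of the 2 ages did not overlap for either gene, and both held without any 1 array. Other large rises were those of the adhesion receptor gene Adgrg7 (2.02 ± 0.19, adjusted p = 8.49e-07) and of Slc34a2, a phosphate transporter (1.55 ± 0.34, adjusted p = 0.0179). The Slc34a2 call ended without 4-week replicate 2 or 3 (0.0985 and 0.0538) and without 6-week replicate 2 or 3 (0.0577 and 0.158).

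Genes of keratinocyte stress and hyperplasia mark wounded or psoriasis-like epidermis. Of 27 measured, 9 rose and 0 fell, 26 lay above 0, and the median change was 0.99 (0.16 in wild type skin). The counts were 3 without 4-week replicate 2, 3 without 6-week replicate 3, 4 without 6-week replicate 2 and 5 without 4-week replicate 1. Krt6a, a keratin of activated keratinocytes, read 9.79, 8.85 and 9.25 and then 10.97, 10.80 and 11.58, a change of 1.82 ± 0.39 (limma, adjusted p = 0.0123). Its partner Krt16 had a change of 1.98 ± 0.62 that was not called (adjusted p = 0.122), although its arrays did not overlap. Krt16 read 10.44, 9.53 and 10.24 and then 11.81, 11.94 and 12.41. With the spread taken from cpdm arrays alone, its adjusted p was 0.000140, and without wild type 6-week replicate 2 it was 0.0167. The Krt6a call ended without 4-week replicate 2 (0.103) or 6-week replicate 3 (0.129). Krt6b changed by 1.81 ± 0.46 (adjusted p = 0.0458), and that call ended without any 1 array other than 4-week replicate 1 (0.0847 to 0.251). Krt16 was named after its values were seen.

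The stefins and serpins of that list are cysteine and serine protease inhibitors of inflamed epidermis. Stfa2 read 4.77, 4.27 and 4.50 and then 5.89, 6.24 and 7.74, a change of 2.11 ± 0.29 (limma, adjusted p = 0.000166) that held without any 1 array. Csta3, a near relative, changed by 1.52 ± 0.26 (adjusted p = 0.00149). For both, 6-week replicate 3 was the highest array by over 1 log2 unit. Serpinb3a showed the same array more sharply, at 3.30, 5.30 and 6.55 against 3.01, 2.80 and 3.58 at 4 weeks, so that the ages overlapped. Its change was 1.92 ± 0.45 (adjusted p = 0.0240), and the call ended without 4-week replicate 1 or 2 (0.0902 and 0.144) and without 6-week replicate 2 or 3 (0.104 and 0.242). Stfa3 was already at 10.27 to 10.49 at 4 weeks and changed by 1.32 ± 0.43, which was not called (adjusted p = 0.144). Ereg, the epidermal growth factor receptor ligand epiregulin, read 6.45, 6.29 and 6.76 and then 7.61, 7.51 and 7.54, a change of 1.05 ± 0.19 (adjusted p = 0.00351). Gsta4, a glutathione transferase that clears lipid peroxidation products, was 1 of 13 antioxidant genes and the 1 called (1.43 ± 0.27, adjusted p = 0.00467, and 0.0682 without 6-week replicate 3). Csta3, Serpinb3a and Stfa3 were named after their values were seen. None of 32 cell cycle genes was called by limma, although 27 lay above 0 and their median change was 0.19 (-0.02 in wild type skin). The arrays of the 2 ages were apart in the higher direction for 13 of the 32, against 12.4% of all genes. Their mean level was 7.27 to 7.41 at 4 weeks and 7.49 to 7.56 at 6 weeks. None of them reached an unadjusted p below 0.05 either, which 7.43% of all genes did in the higher direction and 5.85% in the lower.

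The lipid side of the skin barrier moved less. Of 19 genes that make, load or process the ceramide-rich lipids between cornified cells, 4 rose, 16 lay above 0 and the median was 0.29. Cers3, the ceramide synthase for ultra-long chains, read 9.05, 8.46 and 8.74 and then 9.81, 9.52 and 9.72, a change of 0.93 ± 0.19 (limma, adjusted p = 0.00878). Abca12, the transporter that fills lamellar bodies, read 9.90, 9.55 and 9.65 and then 10.45, 10.39 and 10.43, a change of 0.72 ± 0.14 (adjusted p = 0.00496). The arrays of the 2 ages were apart for both, but 0 of the 4 calls remained without 4-week replicate 2. Without it the adjusted p was 0.0920 for Cers3, 0.0612 for Abca12, 0.173 for the lipase Lipm and 0.0980 for the glucosylceramide synthase Ugcg. The count was 2 without 4-week replicate 3 or 6-week replicate 2 and 1 without 6-week replicate 3. With the spread from cpdm arrays alone it was 8.

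Enzymes of cholesterol synthesis, which feed the same barrier, were looked at after 3 of them had been seen among the called genes. Of 17 measured, 4 rose and 14 lay above 0, with a median of 0.23 against -0.30 in wild type skin. Sc5d, a late step, read 8.44, 8.26 and 8.33 and then 8.95, 9.12 and 9.22, a change of 0.75 ± 0.12 (limma, adjusted p = 0.00138), and held without any 1 array. Sqle, squalene epoxidase, changed by 0.62 ± 0.14 (adjusted p = 0.0153) and Ebp, a sterol isomerase, by 0.46 ± 0.09 (adjusted p = 0.00689). The Ebp call ended without 4-week replicate 2 (0.0785) or 6-week replicate 3 (0.0978). The Sqle call ended without 4-week replicate 1 or 2 (0.0590 and 0.0864) and without 6-week replicate 2 or 3 (0.0654 and 0.155). Sdr9c7, an enzyme needed for the lipid envelope that is bound to corneocytes, rose by 1.03 ± 0.20 (adjusted p = 0.00530, and 0.0625 without 4-week replicate 2). Fabp5, the epidermal fatty acid-binding protein, rose by 0.97 ± 0.20 (adjusted p = 0.00844) and Aqp3, the glycerol and water channel of the basal epidermis, by 0.90 ± 0.17 (adjusted p = 0.00444). These calls ended without 4-week replicate 2 (0.0736 for Fabp5, 0.0640 for Aqp3), and that of Fabp5 also without 6-week replicate 3 (0.109). All 6 genes were named after their values were seen.

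**Figure D2:**
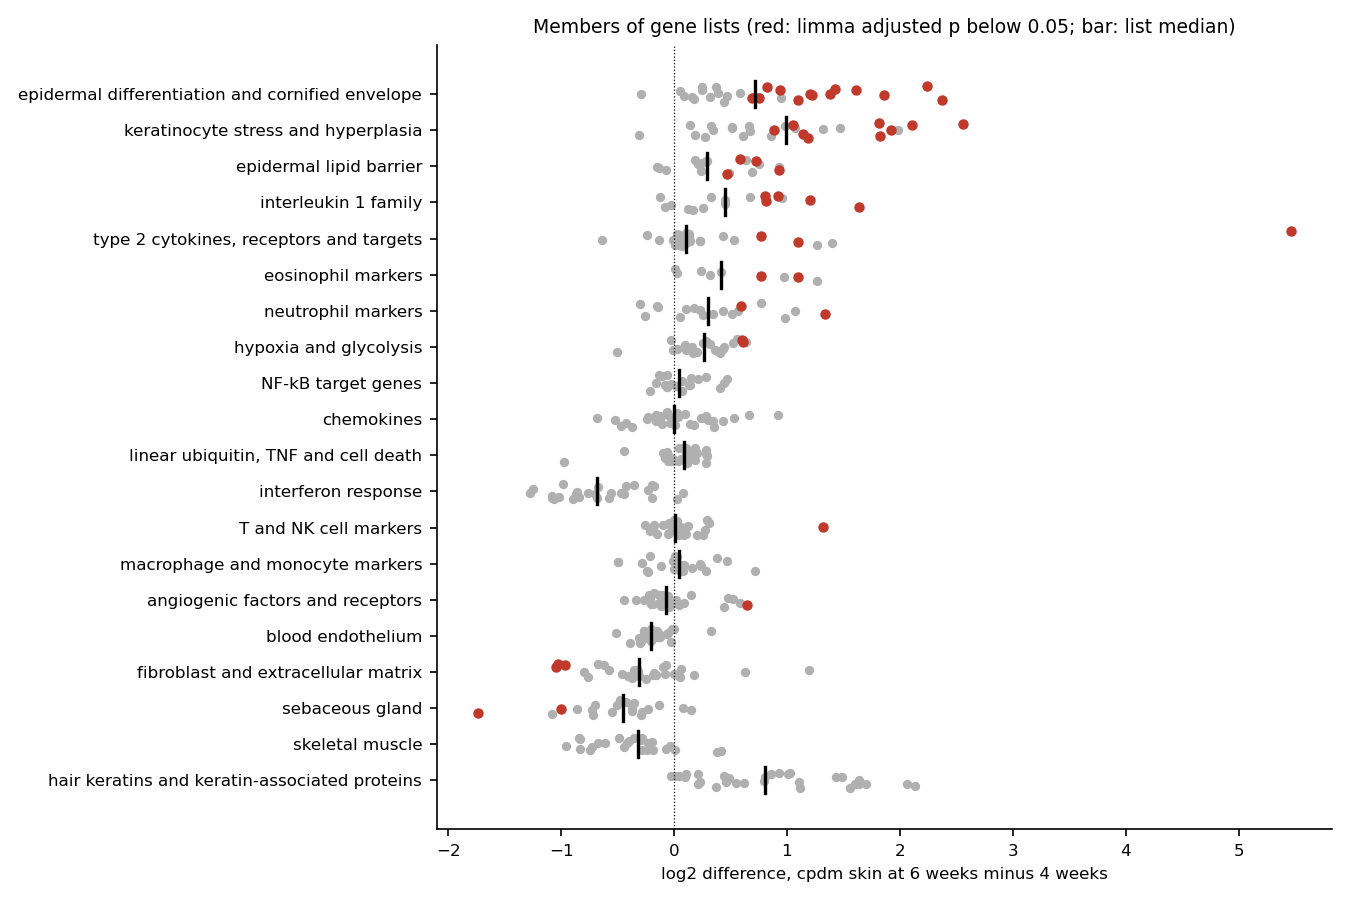
Each point is the change of 1 gene on the log2 scale, cpdm skin at 6 weeks minus 4 weeks, for the members of 20 of the 40 gene lists; red points were called (limma, adjusted p below 0.05) and black bars are list medians. Epidermal differentiation (median 0.72) and keratinocyte stress (0.99) lie to the right, fibroblast and matrix genes (-0.31) and sebaceous genes (-0.45) to the left, and interferon genes (-0.68) lie left with 0 called.

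Cytokines of the interleukin 1 family, which keratinocytes make as alarm signals, rose next to the epidermal genes. Of 16 measured members and receptors, 5 rose and 0 fell, with a median of 0.45 against -0.17 in wild type skin. The ligands of the interleukin 36 branch led. Il1f8, which encodes IL-36 beta, read 7.0, 6.31 and 6.57 and then 8.26, 8.07 and 8.47, 3.12-fold higher (1.64 ± 0.19, limma, adjusted p = 1.29e-05). Il1f6, which encodes IL-36 alpha, read 6.88, 6.66 and 7.07 and then 7.99, 8.17 and 8.05, a change of 1.20 ± 0.16 (adjusted p = 9.09e-05). The antagonist of the same receptor, Il1f5, read 9.29, 8.72 and 8.79 and then 9.84, 9.77 and 9.94, a change of 0.92 ± 0.17 (adjusted p = 0.00419). The third agonist, Il1f9 (IL-36 gamma), read 9.18, 8.91 and 9.0 and then 9.96, 9.89 and 10.10 and was not called (0.95 ± 0.31, adjusted p = 0.144). The arrays of the 2 ages did not overlap for any of these 4 genes. Il1a, the interleukin 1 agonist stored in keratinocytes, changed by 0.82 ± 0.14 (adjusted p = 0.00138), and Il18 by 0.81 ± 0.18 (adjusted p = 0.0158). The interleukin 1 receptor antagonist Il1rn was not called (0.45 ± 0.13, adjusted p = 0.0713). Leaving out 4-week replicate 2 ended the calls of Il1f5 (0.0520) and Il18 (0.0885). That of Il18 also ended without 4-week replicate 3 (0.0549), 6-week replicate 2 (0.0619) or 6-week replicate 3 (0.133). Il1f9, Il18 and Il1rn were named after their values were seen.

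The gene with the largest change was Chil4, a chitinase-like protein (Ym2) that type 2 cytokines induce in epithelia and macrophages. It read 4.85, 4.31 and 4.78 at 4 weeks and 9.46, 9.82 and 11.06 at 6 weeks, 44.2-fold higher (5.47 ± 0.44, limma, adjusted p = 3.63e-08). The 6-week arrays were far above the 4-week arrays, and their own spread, an SD of 0.84 against 0.29, was wide. Its paralog Chil3 (Ym1) read 5.06, 4.16 and 5.08 and then 5.86, 6.28 and 6.35, a change of 1.40 ± 0.38 that was not called (adjusted p = 0.0615). Of 28 type 2 cytokines, receptors and targets, 3 rose (Chil4, Alox15 and Il5ra), 24 lay above 0 and the median was 0.11, so most of the list moved little. Alox15, a lipoxygenase that type 2 cytokines induce, read 8.32, 8.57 and 9.06 and then 9.55, 9.80 and 9.90, a change of 1.10 ± 0.25 (adjusted p = 0.0233). That call ended without 4-week replicate 1 or 2 (0.133 and 0.115) and without 6-week replicate 2 or 3 (0.0864 and 0.154).

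The list of eosinophil markers shares Il5ra and Alox15 with the type 2 list, so its calls are not a separate result. Il5ra, the interleukin 5 receptor of eosinophils, read 4.05, 3.97 and 4.17 and then 4.72, 4.72 and 5.06, a change of 0.77 ± 0.12 (limma, adjusted p = 0.000777) that held without any 1 array. Its 4-week signals were close to those of the Y-linked gene Kdm5d in these female mice (3.41 to 4.04), so it was a dim gene. All 9 measured eosinophil markers lay above 0, 2 of them called (Il5ra and Alox15), with a median of 0.42. Prg3 (0.03) and Epx (0.01) hardly moved. The mean level of the 9 was 5.56 to 5.66 in the 4-week arrays and 6.11 to 6.21 in the 6-week arrays. Siglecf, the defining surface lectin, was not called (0.42 ± 0.12, adjusted p = 0.0962), nor was the granule protein gene Prg2 (0.32 ± 0.13, adjusted p = 0.281). Siglecf, Prg2, Prg3 and Epx were named after their values were seen.

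Neutrophil genes gave 2 calls among 18, with 14 above 0 and a median of 0.30. The 4 below 0, named after their values were seen and not called, were Ly6g (-0.26), Ptx3 (-0.30), Camp (-0.15) and Elane (-0.14). Cxcr2, the chemokine receptor of neutrophils, read 5.40, 5.08 and 5.11 and then 5.89, 6.46 and 7.24, a change of 1.33 ± 0.22 (limma, adjusted p = 0.00142). The 6-week arrays ran from just above the 4-week arrays to far above them, and the call held without any 1 array. Ltf, lactoferrin, changed by 0.60 ± 0.15 (adjusted p = 0.0413), a call that ended without any 1 array other than 6-week replicate 1 (0.0771 to 0.250). S100a9, a calprotectin subunit that stressed keratinocytes make too, read 7.29, 6.95 and 7.50 and then 7.50, 8.24 and 8.96, and was not called (0.99 ± 0.30, adjusted p = 0.105). The mean level of the 18 markers was 5.34 to 5.50 at 4 weeks and 5.54 to 5.99 at 6 weeks, highest in 6-week replicate 3. Mmp13, a collagenase, rose by 1.08 ± 0.25 (adjusted p = 0.0219) as 1 of 25 matrix proteases and inhibitors. Its call ended without any 1 array other than 6-week replicate 1 (0.0545 to 0.227).

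Lymphocyte lists gave single calls. Among 26 T and NK cell genes, Gzmc (granzyme C) rose, from 6.18, 6.28 and 6.42 to 7.86, 7.58 and 7.39 (1.32 ± 0.25, limma, adjusted p = 0.00464), and held without any 1 array. The median of that list was 0.01. Pou2af1, a B cell coactivator, was the 1 call among 16 B and plasma cell genes (0.52 ± 0.13, adjusted p = 0.0400), and that call ended without any 1 array (0.0542 to 0.261). Among 22 type 17 genes Ptges, the inducible prostaglandin E synthase, was called (0.87 ± 0.22, adjusted p = 0.0463), also not without any 1 array (0.0652 to 0.276). No macrophage (24 measured), dendritic and Langerhans cell (18) or mast cell (15) marker was called by limma. At an unadjusted p below 0.05 there were 1 macrophage marker higher and 1 lower, 1 mast cell marker higher and 1 lower, and 0 dendritic cell markers. In the fit of cpdm arrays alone 0 of these 3 lists' genes were called.

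The pathway that the mutation affects gave no call between these ages. Of 30 genes of the linear ubiquitin complex, TNF receptor signalling and cell death, 0 were called by limma, 2 were higher and 0 lower at an unadjusted p below 0.05, and the median was 0.09. Among 20 NF-kB target genes 0 were called (2 higher at an unadjusted p below 0.05, median 0.04), and among 32 chemokines 0 were called (3 higher and 1 lower at an unadjusted p below 0.05, median 0.00). The fit of cpdm arrays alone called 0 in each of these 3 lists. Interferon response genes gave no call either, although most lay below 0. Of 27 measured, 25 lay below 0, the median was -0.68 (0.03 in wild type skin), 8 were lower at an unadjusted p below 0.05, and 0 were called. Ifit3, an antiviral interferon target, read 5.80, 8.01 and 6.73 at 4 weeks and 5.36, 5.64 and 5.71 at 6 weeks (-1.28 ± 0.59, adjusted p = 0.346). Zbp1, a sensor that triggers necroptosis and is itself an interferon target, read 6.71, 8.64 and 7.50 and then 6.40, 6.85 and 6.68 (-0.97 ± 0.49, adjusted p = 0.404). For both, 4-week replicate 2 was the highest array by over 1 log2 unit. The mean of the 27 genes was 6.73, 7.86 and 7.14 in the 4-week arrays and 6.52 to 6.70 in the 6-week arrays. Ifit3 was named after its values were seen.

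Blood vessel growth is the subject of the series. Among 29 angiogenic factors and receptors Hif1a, the oxygen-regulated transcription factor that drives Vegfa, was the 1 call. It read 8.71, 8.85 and 9.03 and then 9.30, 9.49 and 9.74, a change of 0.65 ± 0.12 (limma, adjusted p = 0.00448, and 0.0720 without 6-week replicate 3). Vegfa, the main endothelial growth factor, read 8.28, 8.96 and 8.69 and then 8.95, 9.18 and 9.14, and was not called (0.45 ± 0.21, adjusted p = 0.349). The Vegfa arrays of the 2 ages overlapped narrowly. Its receptors Kdr and Flt1 had changes of -0.39 ± 0.22 (adjusted p = 0.462) and 0.32 ± 0.18 (adjusted p = 0.457). The endothelial junction genes Cdh5 and Pecam1 had changes of -0.27 ± 0.15 (adjusted p = 0.453) and -0.13 ± 0.15 (adjusted p = 0.769). Of 25 blood endothelial genes 24 lay below 0 with a median of -0.20 (-0.35 in wild type skin), 0 were called, and 4 were lower at an unadjusted p below 0.05. Among 17 angiogenesis inhibitors 0 were called (3 lower at an unadjusted p below 0.05), and thrombospondin 2 (Thbs2) had a change of 0.18 ± 0.33 (adjusted p = 0.872). The fit of cpdm arrays alone called 1 blood endothelial gene and 2 inhibitors lower.

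Genes of hypoxia and glycolysis gave 2 calls of 24, with 21 above 0 and a median of 0.27. Slc2a1, the glucose transporter GLUT1, read 10.61, 10.49 and 10.57 and then 11.33, 11.04 and 11.14 (0.61 ± 0.14, limma, adjusted p = 0.0213). Pfkfb4, a regulator of glycolysis, changed by 0.60 ± 0.14 (adjusted p = 0.0233). The arrays of the 2 ages were apart for 16 of the 24 genes in the higher direction, against 12.4% of all genes. The Slc2a1 call ended without any 1 array other than 6-week replicate 2 (0.0520 to 0.116). That of Pfkfb4 ended without 4-week replicate 1 or 2 (0.121 and 0.0814) and without 6-week replicate 2 or 3 (0.0619 and 0.248). With the spread from cpdm arrays alone 7 of the 24 were called higher.

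The list with the most genes that fell was that of fibroblasts and extracellular matrix. Of 32 fibroblast and extracellular matrix genes, 3 fell and 0 rose, 25 lay below 0, and the median was -0.31 in the mutant and -0.54 in wild type skin. Col1a1, a chain of collagen I, the bulk protein of the dermis, read 12.94, 12.95 and 12.93 and then 11.91, 11.94 and 11.84. That is 2.06-fold lower at 6 weeks (-1.04 ± 0.19, limma, adjusted p = 0.00263). The arrays of each age lay close together, with a wide gap between the ages. Col1a2, the other chain, fell by 1.02 ± 0.22 (adjusted p = 0.0153). Sparc, a matricellular collagen-binding protein, read 12.24, 12.43 and 12.20 and then 11.41, 11.38 and 11.19 (-0.96 ± 0.20, adjusted p = 0.0108). The Col1a1 call held without any 1 array. The other 2 ended without 4-week replicate 2 (0.0814 for Col1a2, 0.0785 for Sparc) or 6-week replicate 3 (0.0889 and 0.0942), and that of Col1a2 also without 6-week replicate 2 (0.0521). In wild type skin Col1a1, Col1a2 and Sparc changed by -0.46, -0.52 and -0.55. Of all 44 collagen chains, counted after the values were seen, 8 fell and 41 lay below 0, with a median of -0.18 (-0.14 in wild type skin). Of the 6 chains of collagen IV, the sheet-forming collagen of basement membranes, 4 fell. Col4a1 read 8.92, 9.02 and 8.90 and then 8.39, 8.53 and 8.41 (-0.50 ± 0.12, adjusted p = 0.0245), and its call ended without any 1 array other than 6-week replicate 2 (0.0580 to 0.139).

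Cpz, a carboxypeptidase that binds Wnt ligands, read 8.93, 9.16 and 8.81 and then 6.97, 7.15 and 6.84, 3.94-fold lower (-1.98 ± 0.33, limma, adjusted p = 0.00133). Frzb, a secreted Wnt antagonist, read 6.04, 6.10 and 6.30 and then 5.14, 5.44 and 5.38 (-0.83 ± 0.15, adjusted p = 0.00344). Actc1, the cardiac alpha actin, read 9.05, 10.13 and 9.56 and then 7.63, 7.29 and 7.37 (-2.15 ± 0.35, adjusted p = 0.00108). None of the 3 overlapped between ages, all held without any 1 array, and all fell in wild type skin as well (-1.53, -0.91 and -2.16). The wild type call of Cpz ended without wild type 4-week replicate 2 or 3 (0.0895 and 0.0601) or 6-week replicate 3 (0.0690). The genes of mature skeletal muscle, which can be taken up with skin, gave 0 calls of 26. Of these 23 lay below 0, with a median of -0.32 in the mutant and -0.41 in wild type skin. At an unadjusted p below 0.05 (limma) 8 were lower, against 5.85% of all genes. The arrays of the 2 ages were apart in the lower direction for 20 of the 26, against 11.9% of all genes. The mean level of these muscle genes ran from 10.25 to 10.43 at 4 weeks and from 9.91 to 10.05 at 6 weeks. Adipocyte genes (20 measured, median -0.25) ran from 8.55 to 8.89 and from 8.35 to 8.51. The part of muscle and fat content in the genes that fell was not tested.

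**Figure D3:**
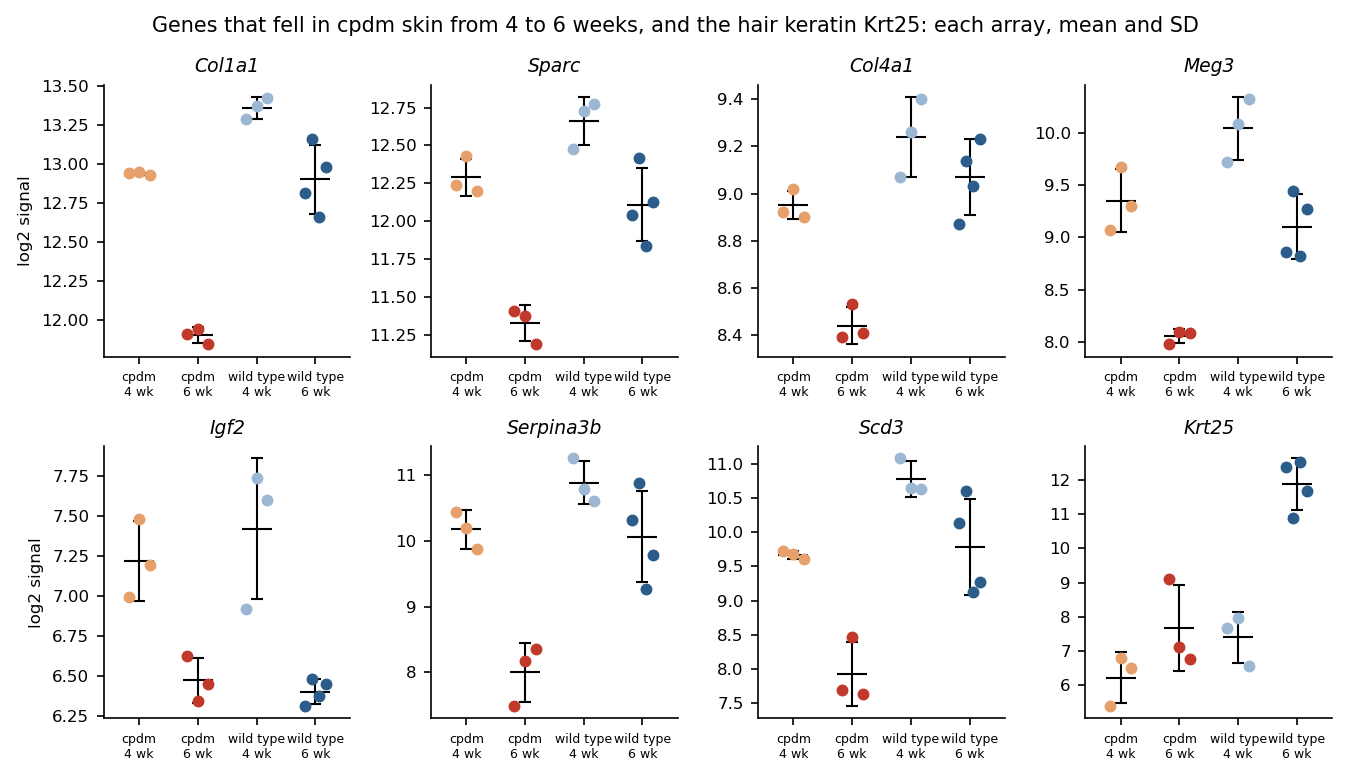
Each panel plots the log2 signal of 1 gene in every array of cpdm and wild type skin at 4 and 6 weeks; points are arrays, and the black bar and whiskers are the group mean and SD. In the first 7 panels the 6-week cpdm arrays lie below the 4-week arrays, and the last panel shows the hair keratin Krt25, at 5.39 to 6.78 and 6.76 to 9.10 in cpdm skin.

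Some imprinted RNAs of a cluster on chromosome 12 fell. Meg3, a maternally expressed long noncoding RNA (chr12:109540996-109571729 in RefSeq's GRCm38.p6), read 9.07, 9.67 and 9.30 and then 7.98, 8.10 and 8.09, 2.45-fold lower (-1.29 ± 0.25, limma, adjusted p = 0.00475, and 0.0626 without 4-week replicate 2). MicroRNAs are cut from transcripts of the same strand downstream of it. Between Meg3 and Mirg 40 microRNA genes had probe sets, of which 4 fell and 39 lay below 0, with a median of -0.33, against -0.05 for 260 microRNA genes elsewhere. The set was taken up after Meg3 and its neighbours were seen among the genes that fell. The probe sets read precursor or host RNA, so mature microRNAs were not measured. Mir679 read 7.05, 7.40 and 7.17 and then 6.59, 6.50 and 6.38 (-0.72 ± 0.14, adjusted p = 0.00448, and 0.0611 without 4-week replicate 2). Mir300 fell by 1.20 ± 0.29 (adjusted p = 0.0311), Mir382 by 1.16 ± 0.30 (adjusted p = 0.0445) and Mir487b by 1.0 ± 0.24 (adjusted p = 0.0263). These 3 calls ended without any 1 array other than 4-week replicate 1 (0.0502 to 0.263, 0.0919 to 0.316 and 0.0633 to 0.191). In all 4, 4-week replicate 2 was the highest array. In wild type skin the same 4 genes changed by -0.59, -1.16, -1.42 and -1.0, and the median of the 40 was -0.37. Meg3 fell there by 0.94 (limma, adjusted p = 0.0305), a call that ended without 5 of the 7 wild type arrays (0.0577 to 0.142). Mature products of the 4 genes from RefSeq are shown, 5′ to 3′ with the seed (bases 2 to 8) in capitals. For Mir487b only the 5p product was included. The 7 products shown have 7 different seeds.
miR-679-5p: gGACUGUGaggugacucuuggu
miR-679-3p: aGCAAGGUccuccucacaguag
miR-300-5p: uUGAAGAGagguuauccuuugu
miR-300-3p: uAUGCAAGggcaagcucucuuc
miR-487b-5p: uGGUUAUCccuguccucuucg
miR-382-5p: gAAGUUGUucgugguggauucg
miR-382-3p: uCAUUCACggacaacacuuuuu

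The imprinted genes Igf2, Plagl1, Rtl1 and Peg3 were named after their values were seen, and no list of imprinted genes was counted. Igf2, the fetal insulin-like growth factor, read 6.99, 7.48 and 7.19 and then 6.62, 6.34 and 6.45 (-0.75 ± 0.19, limma, adjusted p = 0.0463). Plagl1, a zinc finger regulator of that network, changed by -0.46 ± 0.11 (adjusted p = 0.0326) and Rtl1, a paternally expressed gene of the Meg3 cluster, by -0.46 ± 0.11 (adjusted p = 0.0213). Without 4-week replicate 2, the highest array in each, the adjusted p was 0.273, 0.229 and 0.184. Rtl1 kept its call without 4-week replicate 1 or 6-week replicate 3 and in no other case (0.0832 to 0.184), and the calls of Igf2 and Plagl1 held without 4-week replicate 1 and in no other case (0.0573 to 0.273). Peg3 was not called (-0.51 ± 0.17, adjusted p = 0.164). Igf2, Plagl1 and Peg3 fell in wild type skin by 1.02, 0.58 and 1.09 (adjusted p = 0.00587, 0.00701 and 0.00186). The wild type calls of Igf2 and Plagl1 ended without wild type 4-week replicate 2 (0.0716 and 0.0863).

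Of 20 sebaceous gland genes 2 fell and 18 lay below 0, with medians of -0.45 in the mutant and -0.44 in wild type skin. The arrays of the 2 ages were apart in the lower direction for 14 of the 20, against 11.9% of all genes. Scd3, a sebocyte desaturase, read 9.73, 9.68 and 9.61 and then 7.69, 8.47 and 7.64, 3.34-fold lower (-1.74 ± 0.37, limma, adjusted p = 0.0126). Elovl5, a fatty acid elongase, fell by 1.0 ± 0.25 (adjusted p = 0.0366), a call that ended without any 1 array (0.0683 to 0.172). The Scd3 call ended without 4-week replicate 2 (0.0654), 6-week replicate 1 (0.0560) or 6-week replicate 3 (0.111). Serpina3b, a serine protease inhibitor, had the largest fall and read 10.44, 10.20 and 9.87 and then 7.49, 8.17 and 8.35 (-2.17 ± 0.52, adjusted p = 0.0298). The ages were well apart, yet with the spread of all groups the call ended without any 1 array (0.0584 to 0.121). Krt15, a keratin of the hair follicle bulge and basal layer, read 11.09, 10.93 and 10.86 and then 10.17, 10.34 and 10.03 (-0.78 ± 0.19, adjusted p = 0.0366), also not called without any 1 array (0.0592 to 0.224).

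Hair keratins show the hair cycle and separated 1 mutant array from the rest. Of 31 hair keratin and keratin-associated genes 30 lay above 0, 0 were called by limma and 0 reached an unadjusted p below 0.05, with a median of 0.81 in cpdm and 3.93 in wild type skin. Krt71, an inner root sheath keratin, read 6.12, 7.19 and 7.26 and then 10.12, 8.02 and 7.54 (1.70 ± 1.06, adjusted p = 0.524). Krt25, another keratin of that sheath, overlapped between ages, at 5.39, 6.78 and 6.50 and then 9.10, 7.11 and 6.76 (1.43 ± 1.15, adjusted p = 0.643). In the mutant, 6-week replicate 1 was the highest for both, and its mean over the 31 genes was 7.53, against 6.09 and 6.19 in the other two. In wild type skin Krt71 and Krt25 rose by 4.34 and 4.48 (adjusted p = 0.0236 and 0.0291), calls that ended without any 1 wild type array other than 6-week replicate 2 and, for Krt71, 4-week replicate 1 (0.0573 to 0.119). The difference between the genotypes in that change was not called (-2.64 ± 1.45, adjusted p = 0.450, and -3.05 ± 1.58, adjusted p = 0.416).

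Of 16 clock genes Arntl was the 1 called. Arntl (BMAL1), the activator of the circadian loop, read 7.49, 7.51 and 7.46 and then 7.77, 8.19 and 8.15 (0.55 ± 0.14, limma, adjusted p = 0.0469). Of the 16 genes 11 lay below 0, with a median of -0.44. Dbp, an output gene that runs opposite to Arntl, read 8.72, 8.74 and 8.48 and then 8.12, 7.56 and 7.40 (-0.95 ± 0.40, adjusted p = 0.285). Per3 read 7.37, 7.14 and 7.11 and then 7.06, 6.26 and 6.25 (-0.68 ± 0.28, adjusted p = 0.279). For both genes 6-week replicate 1 lay nearer the 4-week arrays than the other two did. The Arntl call ended without any 1 array other than 6-week replicate 1 (0.121 to 0.250). Time of day was not given, so its part in these values was not tested. Dbp and Per3 were named after their values were seen.

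The difference between the genotypes in the change from 4 to 6 weeks asks which of these changes go beyond what age did in wild type skin. By that interaction term 53 genes were called (0.266%), 50 with a higher change in the mutant (0.251%) and 3 with a lower one (0.015%). In wild type skin alone 493 genes were called (2.47%), 194 higher (0.973%) and 299 lower (1.5%). Wild type 6-week replicate 2 stood apart (r = 0.973 at the lowest with its group). Without it the interaction gave 152 calls, 111 higher and 41 lower, and wild type skin 2176. With array weights the interaction gave 340 higher and 310 lower. The interaction gave 20 without cpdm 4-week replicate 2, 21 without cpdm 6-week replicate 3, 28 without wild type 4-week replicate 1, 32 without wild type 6-week replicate 3 and 34 without cpdm 4-week replicate 3.

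Genes that rose in the mutant had a median change near 0 in wild type skin, and genes that fell were mostly below 0 there too. Of the 243 genes that rose in cpdm skin, 46 also passed the interaction test, 149 lay above 0 in wild type skin and 2 were called higher there. Their medians were 0.63 in the mutant and 0.06 in wild type. For the risers that did not pass, no difference from wild type skin was shown. The median change of all genes in wild type skin was -0.02. Of the 60 genes that fell, 20 were also called lower in wild type skin, 48 lay below 0 there, and 2 passed the interaction test, with medians of -0.53 and -0.28. The interaction uses the same cpdm arrays, so its overlap with these calls is a description. Chil4 changed by 5.74 ± 0.60 more in the mutant than in wild type skin (limma, adjusted p = 1.51e-05), and Rptn by 2.38 ± 0.26 more (adjusted p = 1.51e-05). Klk9 (2.21 ± 0.33, adjusted p = 0.000984), Klk13 (2.06 ± 0.31, adjusted p = 0.00121), Il1f8 (1.77 ± 0.26, adjusted p = 0.000902) and Casp14 (1.48 ± 0.18, adjusted p = 5.33e-05) passed too, and all 6 held without any 1 of the 13 arrays. The same test called 8 of the 28 epidermal differentiation genes and 3 of the 16 interleukin 1 family genes, of which 6 and 2 held without any 1 array. The Hrnr difference ended without cpdm 4-week replicate 2, cpdm 6-week replicate 3 or wild type 4-week replicate 1 (0.0547 to 0.0591). That of Klk5 ended without 10 of the 13 arrays (0.0554 to 0.169). That of Il1f5 ended without cpdm 4-week replicate 2 or 3, cpdm 6-week replicate 3 or wild type 4-week replicate 1 (0.0718 to 0.101).

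Krt6a and Sprr1b rose in the mutant but did not pass the interaction test. Krt6a rose in wild type skin too, by 1.59 ± 0.36 (limma, adjusted p = 0.0227), and its difference between genotypes was 0.23 ± 0.53 (adjusted p = 0.900). The wild type call ended without any 1 wild type array other than 4-week replicate 1 and 6-week replicate 2 (0.0527 to 0.115). The difference of Sprr1b was 1.96 ± 0.55 (adjusted p = 0.144). Krt6b had a difference of 2.42 ± 0.64 (adjusted p = 0.114). Klk6 (0.95, adjusted p = 0.227) and Klk7 (0.11, adjusted p = 0.868) did not pass either. Hif1a had a change 0.77 ± 0.17 higher in the mutant (adjusted p = 0.0449) and Arntl one 0.98 ± 0.19 higher (adjusted p = 0.0209). The Hif1a difference held only without cpdm 4-week replicate 3, cpdm 6-week replicate 1, wild type 4-week replicate 3 or wild type 6-week replicate 1 or 2 (otherwise 0.0790 to 0.173). That of Arntl ended without cpdm 4-week replicate 2 or 3, cpdm 6-week replicate 2 or 3 or wild type 4-week replicate 1 (0.0596 to 0.0993). The 3 genes with a lower change in the mutant were Mir218-2 (-0.73 ± 0.16, adjusted p = 0.0427), Fam117a (-0.51 ± 0.11, adjusted p = 0.0453) and the pseudogene Btnl5-ps (-0.96 ± 0.18, adjusted p = 0.0197), named after their values were seen. The Btnl5-ps call ended without cpdm 4-week replicate 1 or 2, cpdm 6-week replicate 2 or wild type 4-week replicate 1 (0.0572 to 0.0783). Those of Mir218-2 and Fam117a each ended without 9 of the 13 arrays (0.0625 to 0.169), among them each cpdm array but 6-week replicate 1. Among the genes that fell furthest, no genotype difference was called for Actc1 (0.01 ± 0.47, adjusted p = 0.997), Cpz (-0.45 ± 0.45, adjusted p = 0.712), Meg3 (-0.35 ± 0.34, adjusted p = 0.700) or Col1a1 (-0.59 ± 0.25, adjusted p = 0.336).

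**Figure D4:**
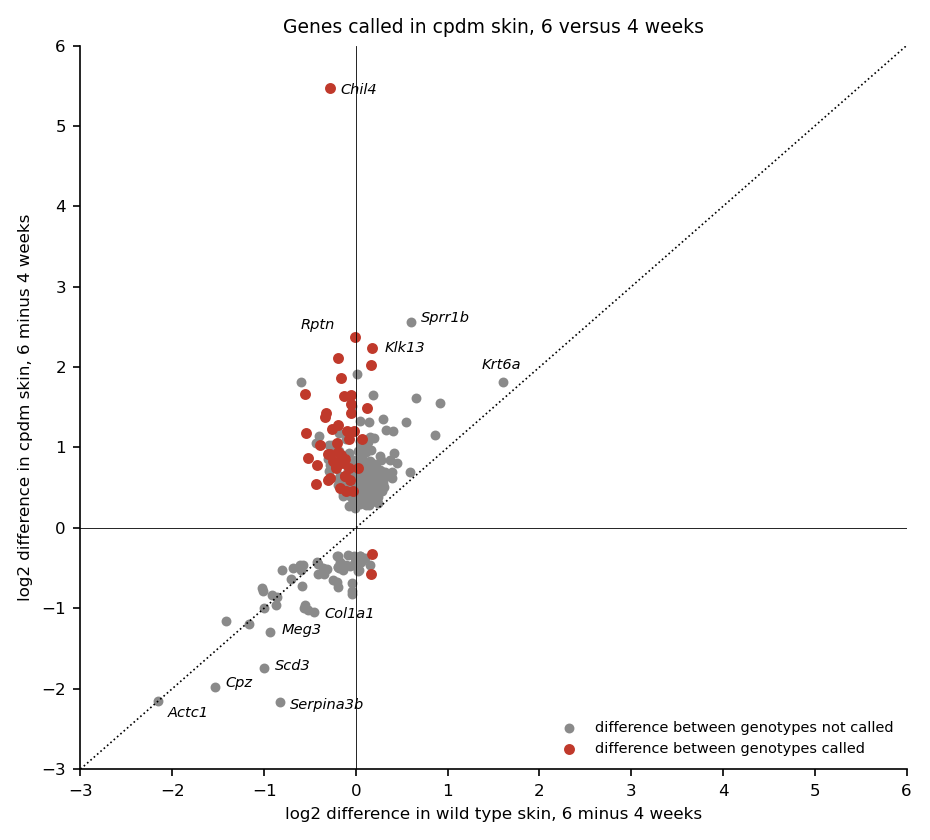
Each point is 1 of the 303 genes called in cpdm skin, with its log2 change from 4 to 6 weeks in wild type skin on the horizontal axis and in cpdm skin on the vertical axis; red points also passed the test of the difference between genotypes, and the dotted line marks equal changes. Genes that rose have a median of 0.06 in wild type skin, while those that fell lie on both sides of the line of equal change. Actc1 is close to that line (-2.16 in wild type and -2.15 in cpdm skin), and Igf2 fell further in wild type skin (-1.02 against -0.75).

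The arrays of the other ages place this step in the course of the disease, as a description with no test. Chil4 averaged 3.90 ± 0.19 (SD, n = 3) at 2 weeks, 4.65 ± 0.29 at 4, 10.11 ± 0.84 at 6, 11.19 ± 1.01 at 8 and 10.84 ± 0.99 at 10 weeks in cpdm skin, so most of its rise fell between 4 and 6 weeks. Rptn averaged 6.01, 6.97, 9.34, 10.28 and 10.29 at the 5 ages, and Casp14 7.38, 8.00, 9.43, 9.64 and 9.34. Il1f8 averaged 4.66, 6.63, 8.27, 8.37 and 8.49, and Krt6b 6.95, 10.36, 12.18, 12.56 and 12.51. For these last 2 genes the larger step came earlier, between 2 and 4 weeks. Col1a1 averaged 12.03, 12.94, 11.90, 12.21 and 12.17, so that 4 weeks was its peak and the level at 6 weeks was near that at 2 weeks. Cpz (7.45, 8.97, 6.99, 7.21 and 6.99) had the same shape. Igf2 averaged 7.65, 7.22, 6.47, 5.91 and 5.76, lower at each later age.

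**Figure D5:**
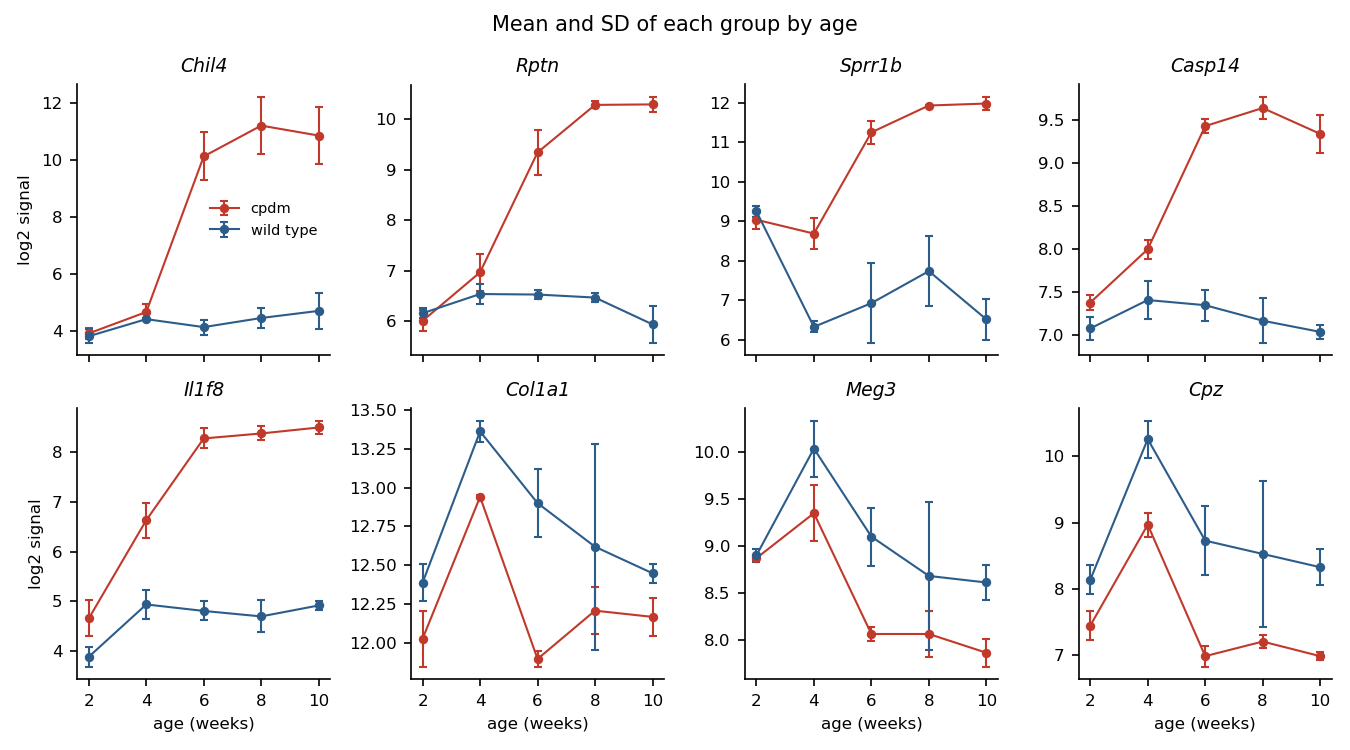
Each panel plots the mean log2 signal of 1 gene against age in weeks for cpdm (red) and wild type (blue) skin, with SD as whiskers (n = 3 arrays, 4 for wild type at 6 weeks). Chil4 in cpdm skin goes from 4.65 at 4 weeks to 10.11 at 6 weeks, and Col1a1 peaks at 4 weeks in both genotypes.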

How the data were processed

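Skin RNA was measured on 31 Affymetrix arrays, and only groups at 4 and 6 weeks were compared. The authors deposited log2 signals. The submitters' processing notes name Expression Console 1.2 and RMA. The sources used here give no RMA version, scan dates or batches and do not say whether arrays were normalized jointly. Skin was stored in RNAlater and extracted with TRIzol, and the labelling kit named is one for 3' arrays, per the labels' protocols. RMA draws low signals together, so folds of dim genes tend to be too small.

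Of 35556 probe sets, 21789 name a single gene, 1621 several and 12146 none. The probe set with the highest mean over all arrays stood for each of 19938 genes. No dim genes were removed. limma 3.58.1 (lmFit, eBayes, R 4.3.3) fitted a mean for each of 10 groups over all arrays (21 residual degrees of freedom). Tests were two-sided. Array number limits precision. Python 3.11.15 and matplotlib 3.10.9 made the figures.

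The 40 gene lists, the comparison and the naming rule were chosen with earlier results of these data known. The rule names the 15 largest rises and 15 largest falls among called genes without overlap, leaving out clones and gene models, up to 4 members of each list by p, any member of the TNF signalling and vessel lists, Sharpin, and the 10 genes with the lowest interaction p. On simulated data for the cpdm comparison (19938 genes), 52.2% of changes of 0.5, 85.1% of 1 and 98.5% of 2 were recovered, with 8 of 165 calls false. The interaction recovered 31.3%, 80.6% and 98.5%, and 5 of its 145 calls were false. For each gene the simulated noise was normal, equal in spread over all arrays and independent of other genes. Array weights of the real arrays ran from 0.161 to 3.04, so these rates need not hold for them. Alternatives were other samples in the fit, the mean of probe sets, a dim-gene filter, a trend and robust spread, array weights, other scalings, a replicate block, stricter thresholds and leaving out arrays. Same-numbered arrays deviated together at r = 0.200, 0.0719 and 0.152, and the labels do not pair them.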

Additional observations from a re-analysis of the deposited data

Results flagged for a closer look

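In wild type skin at 6 weeks, the group of 4 arrays, 1 array stood far from the other 3 for 4 of 125 genes. Csta3 read 2.72 in that array, Il1f8 5.09, Chil3 3.69 and Mir382 4.76. About 1 in 20 groups would do so by chance.

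For 34 of the genes named, the change from 4 to 6 weeks differed between cpdm and wild type skin by the interaction term (limma, adjusted p below 0.05). Chil4 had the largest difference, 5.74 log2 units more in the mutant. Among cornified layer genes it was 2.38 for Rptn, 2.02 for Lce3c, 1.48 for Casp14, 1.31 for Lce1g and 1.07 for Hrnr. Among kallikreins it was 2.21 for Klk9, 2.06 for Klk13, 1.72 for Klk8, 1.22 for Klk11 and 0.98 for Klk5. Among stress and signalling genes it was 2.30 for Stfa2, 1.75 for Gsta4, 1.39 for Ptges, 1.26 for Ereg, 0.98 for Arntl and 0.77 for Hif1a. For the interleukin 36 genes it was 1.77 (Il1f8), 1.22 (Il1f6) and 1.19 (Il1f5). Lipid enzymes differed by 1.42 (Sdr9c7), 0.90 (Sqle), 0.83 (Sc5d) and 0.57 (Ebp). Adgrg7 (1.85), Gadl1 (1.72), Rbp2 (1.71), Ggct (1.49), Jakmip2 (1.37) and the folate enzyme gene Ggh (0.76) rose in the mutant as well. For Serpinb12 the difference of 1.86 came with a fall of 1.45 in wild type skin, and the change in the mutant was not called (0.41 ± 0.29, adjusted p = 0.573). Mir218-2 (-0.73), Fam117a (-0.51) and Btnl5-ps (-0.96) had lower changes in the mutant. Of the 34 differences, 15 held without any 1 of the 13 arrays.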

How the results depend on the processing

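The 303 genes called in cpdm skin became 694 with only the 6 arrays compared, 781 with cpdm arrays alone, 1359 with array weights, 122 at an adjusted p below 0.01, 63 at an adjusted p below 0.05 with a change of at least 2-fold, and 95 to 253 without 1 of the 6 arrays. Without wild type 6-week replicate 2, chosen after seeing the data, they became 336, with 10 keratinocyte stress, 13 epidermal differentiation and 4 matrix genes. For wild type skin the 493 became 19 with wild type arrays alone, 2132 with array weights, 40 and 147 at the same 2 thresholds, and 39 to 2176 without 1 array. The 53 genotype differences became 27 with only the arrays compared, 650 with array weights, 20 and 31 at these, and 20 to 152 without 1 array. Array weights called 19 keratinocyte stress genes in place of 9, 8 lipid barrier genes in place of 4, 8 interleukin 1 family genes in place of 5, 5 type 2 genes in place of 3 and 8 matrix genes in place of 3. Only the arrays compared gave 8 lipid barrier, 5 type 2 and 9 matrix genes, cpdm arrays alone gave 8 lipid barrier and 8 matrix genes, and leaving out the dimmest 40% of genes left 3 interleukin 1 family genes. Without 1 array the counts were 3 to 9 for keratinocyte stress, 8 to 11 for epidermal differentiation, 0 to 3 for the lipid barrier, 3 to 5 for the interleukin 1 family, 2 to 3 for type 2 genes and 1 to 3 for matrix genes. The causes were not tested. The arrays share only a number across groups. With that number as a replicate block, 303 genes were called in cpdm skin, 36 differences, 5 matrix genes in place of 3, and 146 genes in wild type skin. Among the 125 named genes followed through these settings, no change turned its direction under any alternative run.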
